A study of Mus musculus with 10 samples.

Results

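The genes described here are 37 mouse genes of the ATF4 amino acid response, listed by name from what is known of the pathway, at a time when earlier results of these data were known. All 37 were found among the 46959 genes of the deposited count table. They fall into 8 regulators, 5 stress effectors, 7 amino acid carriers, 9 enzymes of amino acid and one-carbon synthesis, and 8 aminoacyl-tRNA synthetases. ATF4 is a transcription factor whose protein is made when the initiation factor eIF2 is phosphorylated, for example by the kinase GCN2, which senses uncharged tRNA. It binds a composite C/EBP-ATF element in its target genes and raises enzymes that make non-essential amino acids, the carriers that import them and the synthetases that load them onto tRNA. B cells stimulated with LPS start to divide and to secrete antibody, both of which draw on this supply.

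The study measured RNA in 10 mouse libraries. CD43- splenocytes, labelled splenic B cells, were kept for 2 days with 5 µg/ml LPS, the bacterial ligand of Toll-like receptor 4, in medium containing 10% serum. The 6 splenic libraries are 2 of wild-type cells with LPS (WT LPS), 2 of wild-type cells with LPS and 200 ng/ml SAHA (WT LPS+SAHA), and 2 of KOKI cells with LPS (KOKI LPS). SAHA, or vorinostat, inhibits histone deacetylases. The labels do not spell out KOKI, and the series title speaks of a mini 3'RR, the regulatory region at the 3' end of the IgH locus. Growth notes name BLACK-6 mice as the splenic controls. The 4 femoral libraries, labelled B cells and taken without culture, are pools of 3 mice each that all lack RAG2: 2 control pools lacking RAG2 and gamma c, 1 KOKI pool lacking RAG2 and gamma c, and 1 KOKI pool lacking RAG2. Animal age is not given in the sources used here. The treatment label of both KOKI LPS libraries names SAHA, while their titles and the design text name LPS only, so the KOKI cultures are compared with both wild-type groups. The description of both SAHA libraries carries the tag D3, which is not explained and is in no other description, while the growth notes give 2 days for the cultures. If it marks a longer culture, time and SAHA cannot be told apart. No label says whether the 2 libraries of a splenic group came from separate animals or cultures, and p-values measure the spread between these libraries, which in the wild-type groups may be technical.

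Libraries held between 18614742 and 29314068 counts assigned to genes. Of the KOKI LPS libraries, replicate 2 had 8499 counts of Xist and 20 of the Y-linked gene Ddx3y, against at most 9 and at least 1853 in the other 9 libraries, so the KOKI LPS pair did not come from the same animal. Of 1292 olfactory receptor genes, 451 had counts in WT LPS+SAHA replicate 2 and 126 in WT LPS+SAHA replicate 1, against 15 to 47 in the other 8 libraries. The femoral pools, labelled as lacking RAG2, held 153 to 268 counts of Rag2. Il2rg, which encodes gamma c, had 361, 238 and 216 counts in the pools labelled as lacking it. The KOKI pool lacking RAG2 alone had 262, so these counts do not tell the labelled genotypes apart. The 8 B cell markers summed to between 2446 and 3411 CPM in the splenic libraries (CPM are counts scaled to a common library size with TMM factors). In the femoral libraries the same markers summed to between 11.6 and 14.3 CPM, while 8 neutrophil markers summed to between 11880 and 19960 CPM. Most of the femoral B cell sum was Cd79b, at 8.61 to 9.08 CPM, and Cd22, at 2.64 to 4.33 CPM. Each of the other markers was at or below 0.334 CPM, with Ms4a1, which encodes CD20, at 0 in 3 of 4 libraries, so most defining B cell transcripts of the label were at or near 0.

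The element TGATGNAA, the core of the site that ATF4 shares with C/EBP partners, was searched on both strands of RefSeq promoter windows (build GRCm38.p6, 250 bases before to 50 after a transcription start). Windows were matched for 30 of the 37 genes. Eif4ebp1, Slc7a3, Slc7a5, Slc1a5, Cth, Nars and Wars had no entry. The element was present in 12 of the 30 genes (40.0%), against 1219 of 27025 genes (4.51%) and 1304 of 32851 windows (3.97%) in the whole table. Of the 13 elements, 9 read TGATGCAA, 3 read TGATGAAA and 1, in Trib3, read TGATGTAA, and 11 of 13 lay on the strand opposite to the gene. A match is a description of the letters and no measure of ATF4 binding. The genes were listed as known members of the response, so a share above that of all genes may follow from how the list was chosen. The 7 stretches shown are those of the 5 genes with an element that fell with SAHA, and of Slc1a4 and Atf3, a carrier and a regulator that were called in KOKI LPS against WT LPS+SAHA and not for SAHA. Other genes with an element had the same calls as this pair and are not shown. Each stretch reads 5′ to 3′ on the strand of the element, which is in capitals, and element positions count from the transcription start.
Chac1, chr2:119351038-119351067, minus strand, element at −193 to −186: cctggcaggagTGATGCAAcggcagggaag
Asns, chr6:7693214-7693243, minus strand, element at −23 to −16: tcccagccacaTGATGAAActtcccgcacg
Gars, chr6:55037960-55037989, minus strand, element at −30 to −23: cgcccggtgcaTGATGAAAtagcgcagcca
Tars, chr15:11399655-11399684, plus strand, element at −15 to −8: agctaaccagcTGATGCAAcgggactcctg
Iars, chr13:49682126-49682155, minus strand, element at 8 to 15: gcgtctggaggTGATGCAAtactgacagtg
Slc1a4, chr11:20332699-20332728, plus strand, element at −4 to 4: caggctggagaTGATGCAAcgcaggaggca
Atf3, chr1:191183425-191183454, plus strand, element at −110 to −103: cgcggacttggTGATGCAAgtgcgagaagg

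The wider setting is shown for the 2 genes with the largest falls under SAHA among those with a window; Slc7a3, which fell further than Asns, has none. Both runs are the 250 bases before the start on the strand of the gene, so the Chac1 element appears as its reverse complement.
Chac1, chr2:119350992-119351241, plus strand: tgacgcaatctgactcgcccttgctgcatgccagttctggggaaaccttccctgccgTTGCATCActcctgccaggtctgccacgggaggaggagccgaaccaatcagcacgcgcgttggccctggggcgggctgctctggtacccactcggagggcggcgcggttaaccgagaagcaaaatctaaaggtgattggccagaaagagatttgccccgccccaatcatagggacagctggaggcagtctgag
Asns, chr6:7693210-7693459, minus strand: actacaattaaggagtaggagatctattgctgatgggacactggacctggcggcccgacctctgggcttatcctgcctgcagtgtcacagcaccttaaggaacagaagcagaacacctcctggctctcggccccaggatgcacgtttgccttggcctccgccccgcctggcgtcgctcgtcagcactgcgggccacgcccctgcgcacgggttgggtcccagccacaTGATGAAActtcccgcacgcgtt

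Per length of exon, Atf4 itself was the most abundant of the 37 transcripts in the WT LPS cultures, at 123 ± 7.38 RPKM (CPM per kilobase of exon, SD, n = 2). It was followed by the asparaginyl-tRNA synthetase Nars at 109 ± 10.7 RPKM and by Phgdh, the first enzyme of serine synthesis, at 91.5 ± 5.70 RPKM. The level of Atf4 and that of Nars differed by less than the sum of their SDs. Gars (66.0 RPKM), Shmt2 (60.6), Psat1 (55.0) and Tars (51.0) came next. The lowest levels were those of Cebpb at 1.12 RPKM, Nupr1 at 0.221 and Vldlr at 0.0206. The 6 genes below Atf4 in this order were all synthesis enzymes or synthetases, and apart from Atf4 and Cebpg (12.1 RPKM) each regulator was at or under 6.03 RPKM, the level of Ddit3. The order depends on the exonic length used. Eprs had more CPM than Atf4 (366 against 212) but 20.2 RPKM, with an exonic length of 18.1 kb against 1.72 kb.

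With SAHA, transcripts of the amino acid response were lower in the LPS cultures. Of 36 members tested, 11 fell and 0 rose (edgeR quasi-likelihood test, adjusted p under 0.05 over all genes), against 3.69% of all 15342 genes tested that fell and 0.952% that rose (4.64% called in all). The median log2 fold change of the 36 was −0.658, beside 0.0176 over all genes, and 32 of 36 were negative. Both SAHA libraries lay below both WT LPS libraries for 30 members and above them for 2, against 30.2% and 26.1% of all genes. Nupr1, at 0 to 0.757 CPM in the splenic libraries, did not pass the filter on low counts. By role, 4 of 9 synthesis enzymes, 3 of 8 synthetases, 2 of 5 stress effectors, 2 of 7 carriers and 0 of 7 regulators fell.

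The 11 calls rested on the full set of 6 splenic libraries. Here and below, counts of members at an unadjusted p under 0.05 have no share of all genes beside them. They therefore cannot be set against the background. Without WT LPS replicate 1, WT LPS+SAHA replicate 1 or WT LPS+SAHA replicate 2, edgeR called 0 members and 0 of all genes, with 25, 19 and 25 members at an unadjusted p under 0.05, and without WT LPS replicate 2 or either KOKI LPS library it called 6. The median log2 fold change stayed between −0.784 and −0.572 when a library of the 2 compared groups was left out, and DESeq2 called 18 members lower. DESeq2 also called more of all genes, 1704 in either direction against 712 in the main fit.

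**Figure D1:**
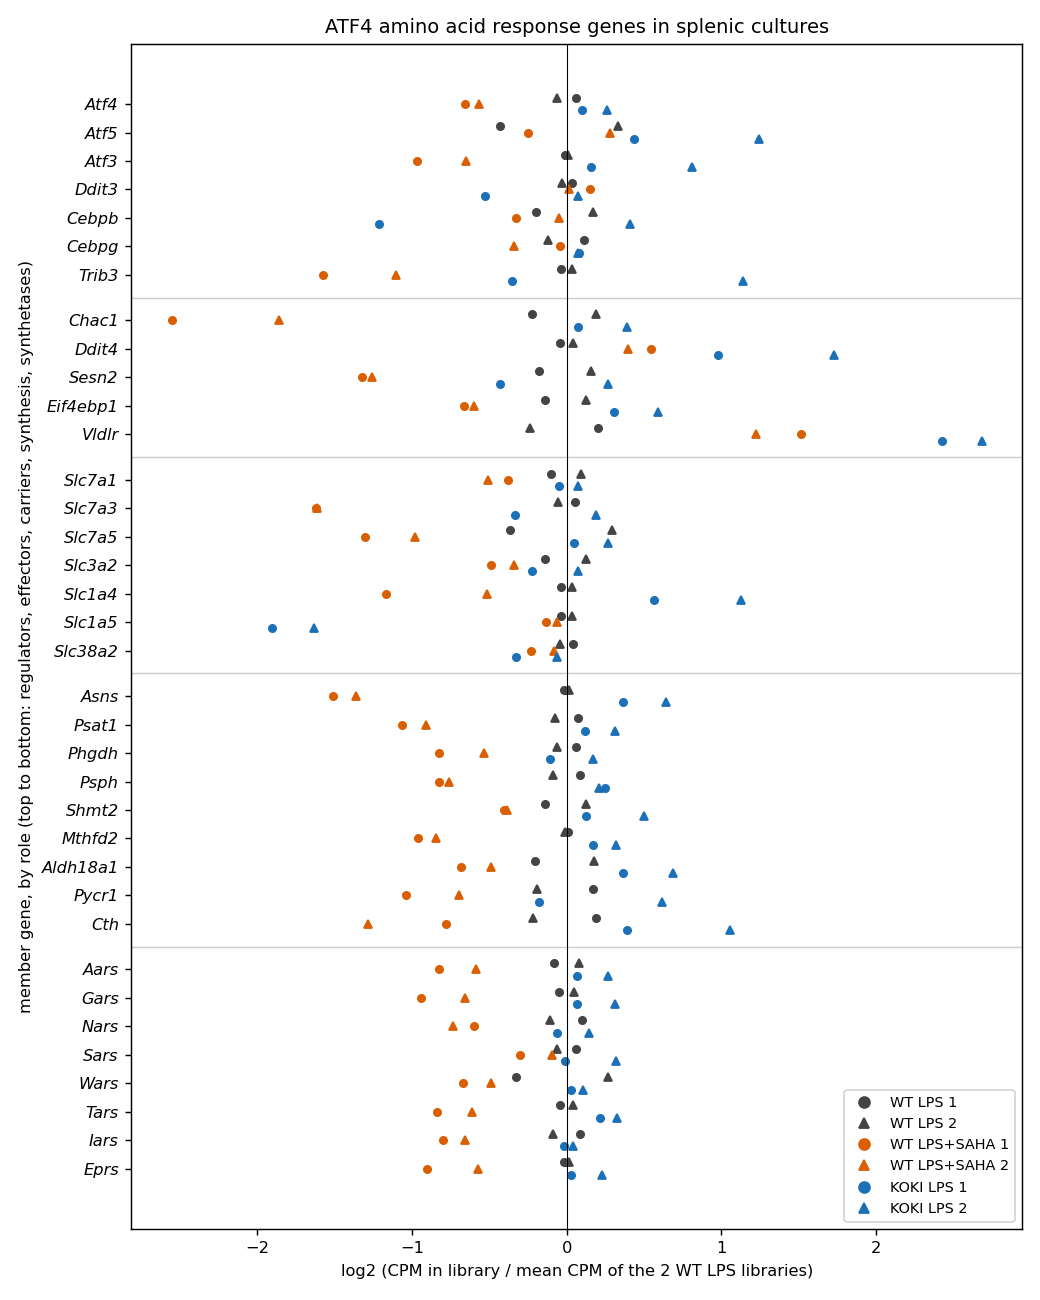
Level of each of the 36 members tested in each splenic library, as log2 of its CPM over the mean of the 2 WT LPS libraries (x axis), with members on the y axis grouped by role; circles are replicate 1 and triangles replicate 2. Most SAHA points (orange) lie left of 0 and of the KOKI LPS points (blue) those of Slc1a5 lie furthest left.

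The enzymes of synthesis held the most calls of any role, 4 of 9. Asns, which makes asparagine from aspartate and glutamine, lies on chromosome 6 (7675169-7693254, mm10). It was at 77.3 and 78.9 CPM in the WT LPS libraries, 27.4 and 30.4 with SAHA, and 100.4 and 122 in KOKI LPS. The 3 groups did not overlap, and the fall with SAHA was −1.40 ± 0.144 (log2 ± SE, adjusted p = 0.0185). Psat1, the transaminase of serine synthesis, was at 246 and 222 CPM in WT LPS, 112 and 125 with SAHA, and 254 and 291 in KOKI LPS. Its SAHA libraries were well below the other 4, with a log2 change of −0.96 ± 0.153 (adjusted p = 0.0259). Psph, the phosphatase that completes serine synthesis, read 44.2 and 39.2 CPM in WT LPS, 23.6 and 24.6 with SAHA, and 49.4 and 48.1 in KOKI LPS. The change was −0.76 ± 0.127 (adjusted p = 0.0274). Exons of Psph overlap those of Cct6a on the other strand, a far more abundant gene whose level also fell with SAHA (718 and 590 CPM in WT LPS, 342 and 349 with SAHA, log2 −0.89, adjusted p = 0.0365), and the strand setting of the counting is not given in the sources used here. Mthfd2, a mitochondrial enzyme of one-carbon metabolism, was at 108 and 107 CPM in WT LPS, 55.2 and 59.8 with SAHA, and 121 and 134 in KOKI LPS. It fell by 0.87 ± 0.127 on the log2 scale (adjusted p = 0.0234).

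The other 5 enzymes had negative log2 changes that did not pass the test. Phgdh was at 237 and 217 CPM in WT LPS, 129 and 157 with SAHA, and 211 and 256 in KOKI LPS. Shmt2, which passes the carbon of serine to folate in mitochondria, read 127 and 153 CPM in WT LPS, 106 and 107 with SAHA, and 153 and 198 in KOKI LPS. Like all the enzymes of this role, called or not, both genes had their SAHA libraries below the other 4. The share of all genes in that order was not counted, but 30.2% had both SAHA libraries below both WT LPS libraries. Aldh18a1 and Pycr1 act in proline synthesis. Aldh18a1 was at 51.2 and 66.7 CPM in WT LPS, 36.8 and 42.0 with SAHA, and 75.9 and 94.8 in KOKI LPS. Pycr1 was scarcer, at 7.97 and 6.19 CPM in WT LPS, 3.45 and 4.37 with SAHA, and 6.26 and 10.9 in KOKI LPS. Cth, which yields cysteine from cystathionine, read 13.2 and 9.96 CPM in WT LPS, 6.74 and 4.77 with SAHA, and 15.2 and 24.1 in KOKI LPS. Adjusted p-values of these 5 for SAHA against WT LPS ranged from 0.0679 for Phgdh to 0.228 for Shmt2.

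Among the stress effectors, Chac1 had the largest fall of the 36 members. It encodes a cyclotransferase that degrades glutathione and lies on chromosome 2 (119351229-119354381). Its level was 8.93 and 11.9 CPM in WT LPS, 1.78 and 2.87 with SAHA, and 10.9 and 13.6 in KOKI LPS. WT LPS and KOKI LPS overlapped, the SAHA libraries stood below both, and the log2 change was −2.13 ± 0.304 (adjusted p = 0.0234). Sesn2, a leucine sensor that restrains mTORC1, read 11.9 and 15.0 CPM in WT LPS, 5.39 and 5.65 with SAHA, and 9.98 and 16.2 in KOKI LPS. Its change with SAHA was −1.26 ± 0.271 (adjusted p = 0.0431). Eif4ebp1, the translation repressor 4E-BP1, was at 27.8 and 33.3 CPM in WT LPS, 19.3 and 20.2 with SAHA, and 37.9 and 45.9 in KOKI LPS, and did not pass for SAHA (adjusted p = 0.0692). Ddit4, an mTORC1 inhibitor also called REDD1, went the other way, at 19.0 and 20.2 CPM in WT LPS, 28.6 and 25.8 with SAHA, and 38.5 and 64.8 in KOKI LPS. Its log2 change with SAHA was 0.50 ± 0.232 (adjusted p = 0.224). Vldlr, a lipoprotein receptor, was between 0.176 and 1.33 CPM in the splenic libraries and passed in none of their comparisons.

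Of the carriers Slc7a3 and Slc7a5 fell. Slc7a3, an importer of basic amino acids on the X chromosome (101079210-101086020), was at 28.9 and 26.7 CPM in WT LPS, 9.06 and 9.09 with SAHA, and 22.1 and 31.7 in KOKI LPS. The SAHA pair was far below the other libraries, which overlapped among themselves, and the log2 change was −1.59 ± 0.196 (adjusted p = 0.0198). Slc7a5, the light chain of the leucine carrier LAT1, read 57.3 and 90.2 CPM in WT LPS, 29.9 and 37.4 with SAHA, and 76.4 and 88.6 in KOKI LPS. Despite the spread in WT LPS, its change of −1.11 ± 0.228 passed (adjusted p = 0.0404). Slc3a2, which encodes the heavy chain that LAT1 needs, was at 86.0 and 103 CPM in WT LPS, 67.6 and 74.9 with SAHA, and 81.0 and 99.7 in KOKI LPS, and passed in none of the splenic comparisons. Slc7a1, another importer of basic amino acids, was at 58.7 and 67.2 CPM in WT LPS, 48.4 and 44.2 with SAHA, and 61.0 and 66.2 in KOKI LPS. Slc1a4, a carrier of alanine, serine and cysteine, read 8.01 and 8.41 CPM in WT LPS, 3.67 and 5.74 with SAHA, and 12.1 and 18.0 in KOKI LPS. For both, SAHA lay below WT LPS without passing (adjusted p = 0.105 and 0.145). Slc38a2, a sodium-coupled carrier of small neutral amino acids, was between 122 and 157 CPM in all 6 libraries.

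All 8 synthetases, the 3 that fell and those not called, had their SAHA libraries below the other 4. Of all genes, 30.2% had both SAHA libraries below both WT LPS libraries. Gars, for glycine, was at 199 and 213 CPM in WT LPS, 107 and 131 with SAHA, and 216 and 255 in KOKI LPS, a log2 change with SAHA of −0.76 ± 0.165 (adjusted p = 0.0431). Tars, for threonine, read 131 and 138 CPM in WT LPS, 75.2 and 88.0 with SAHA, and 156 and 168 in KOKI LPS (−0.69 ± 0.140, adjusted p = 0.0389). Iars, for isoleucine, was at 126 and 112 CPM in WT LPS, 68.4 and 75.7 with SAHA, and 118 and 122 in KOKI LPS (−0.70 ± 0.130, adjusted p = 0.034). Aars, Nars and Eprs, for alanine, asparagine, and glutamate with proline, had changes of similar size just outside the threshold. Aars was at 160.3 and 179 CPM in WT LPS, 95.8 and 113 with SAHA, and 177 and 204 in KOKI LPS (adjusted p = 0.0508 for SAHA). Eprs was at 362 and 370.3 CPM in WT LPS, 196 and 246 with SAHA, and 373 and 429 in KOKI LPS (0.0602). Nars was at 306 and 266 CPM in WT LPS, 189 and 172 with SAHA, and 274 and 316 in KOKI LPS (0.0598). Wars, for tryptophan, was at 33.6 and 50.6 CPM in WT LPS, 26.5 and 30.0 with SAHA, and 42.9 and 45.3 in KOKI LPS. Sars, for serine, had the SAHA change nearest to 0 among the synthetases, with levels of 146 and 134 CPM in WT LPS, 113 and 131 with SAHA, and 139 and 175 in KOKI LPS.

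No regulator passed for SAHA in the fit of 6 libraries without a replicate block. Atf4, the factor that names the response (chromosome 15, 80255184-80257540), was at 221 and 203 CPM in WT LPS, 134 and 143 with SAHA, and 227 and 253 in KOKI LPS. Its SAHA libraries were below all others, and the log2 change of −0.58 ± 0.143 missed the threshold (adjusted p = 0.0567). ATF4 output is set largely at translation, which these RNA counts do not measure. Atf3, a stress-induced relative, read 12.8 and 13.0 CPM in WT LPS, 6.58 and 8.21 with SAHA, and 14.4 and 22.6 in KOKI LPS. Trib3, a pseudokinase that restrains ATF4, was at 5.18 and 5.42 CPM in WT LPS, 1.78 and 2.47 with SAHA, and 4.15 and 11.7 in KOKI LPS. Ddit3, the factor CHOP, differed from these in that its SAHA libraries (11.5 and 10.5 CPM) were not below WT LPS (10.6 and 10.1 CPM), and its exons overlap those of Mars on the other strand. Cebpg, a heterodimer partner of ATF4, was between 53.4 and 73.1 CPM, Atf5 between 3.19 and 10.1 CPM and Cebpb between 0.729 and 2.24 CPM in all 6 libraries, with no call in any splenic comparison. Exons of Atf5 overlap those of Il4i1 on the other strand, at 112 to 153 CPM, and exons of Cebpb those of Tmem189, at 21.7 to 28.5 CPM, so with the strand setting unknown the levels of these scarce genes are uncertain.

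**Figure D2:**
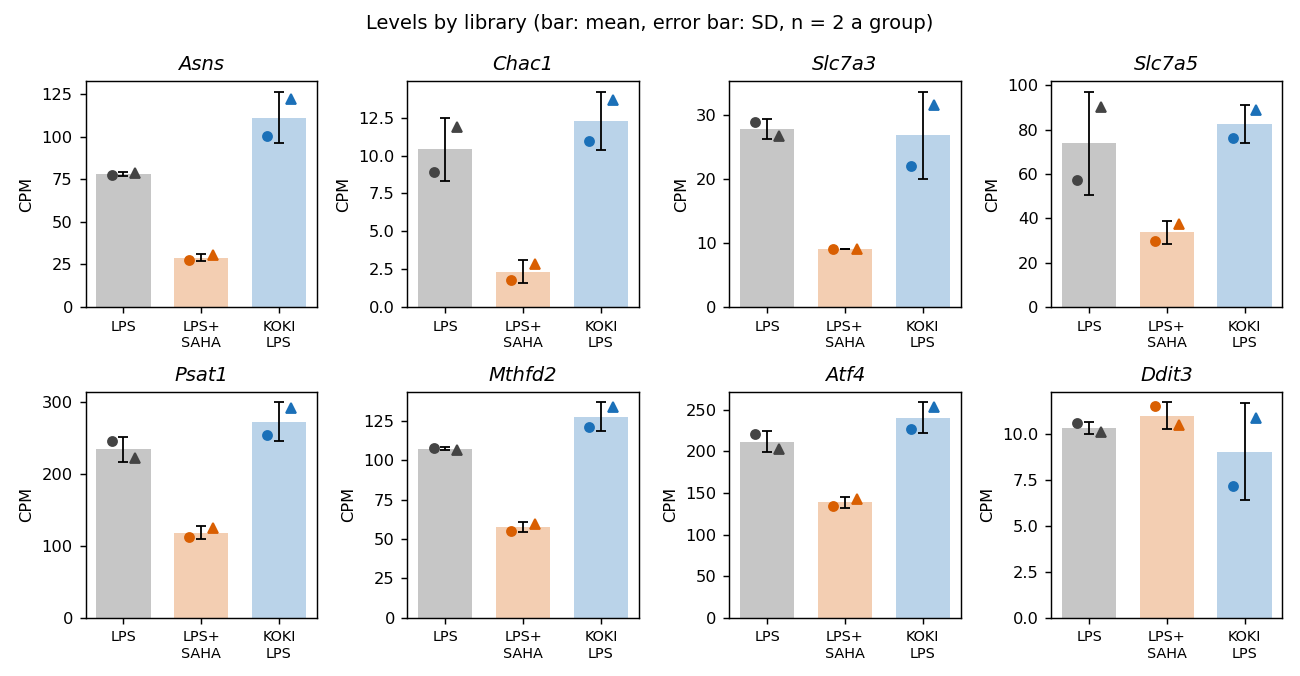
CPM (y axis, from 0) of 8 members in WT LPS, WT LPS+SAHA and KOKI LPS cultures (x axis); bars are means, error bars SD of 2 libraries and points the libraries. In 7 of the 8 the SAHA bar is lowest, while Ddit3 has all its libraries between 7.18 and 11.5 CPM.

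Other transcripts moved with these genes, and the marker counts below stand beside 3.69% of all genes that fell and 0.952% that rose. All 8 proliferation markers fell with SAHA, from a sum of 2113 and 2079 CPM in WT LPS to 959 and 1055 CPM. Of 7 plasmablast markers tested, 3 fell, and the list summed to 870 and 819 CPM in WT LPS and 555 and 524 CPM with SAHA. Of the 8 B cell markers, 2 rose, with sums of 2699 and 2799 CPM in WT LPS and 3345 and 3411 CPM with SAHA, and none was at 0. The 8 T cell markers reached sums of 15.1 and 15.0 CPM in WT LPS and 17.4 and 18.4 with SAHA, with 0 of 6 called, and the neutrophil markers at most 3.83 CPM in any splenic library. Macrophage markers summed to 136 and 130 CPM in WT LPS and 174 and 165 CPM with SAHA (1 of 7 rose). The erythroid list summed to 500.4 and 424 CPM in WT LPS and 247 and 209 CPM with SAHA, and nearly all of this was Tfrc, the transferrin receptor of dividing cells as well as erythroid ones. Tfrc was the 1 of 4 tested that fell, from 488 and 417 CPM to 234 and 202 CPM, while each of the 3 globin genes tested (Hba-a1, Hbb-bs, Hbb-bt) was at or below 6.77 CPM in these 4 libraries. The SAHA libraries also held fewer counts (19701345 and 19751551, against 26517669 and 29222145 in WT LPS) and had counts for more olfactory receptor genes, as given above. The part of cell division, cell make-up or these library features in the fall of the members was not tested. In bulk libraries such as these, fewer cells of a type and less RNA per cell cannot be told apart.

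Genes around the pathway were described from lists of known components and targets. Over all genes tested 3.69% fell with SAHA and 0.952% rose. Of 10 genes of eIF2, its phosphatase and its exchange factor eIF2B, 5 fell with SAHA (Eif2s1, Eif2s2, Eif2b1, Eif2b3, Eif2b5) and 0 rose. Of 24 further ATF4 targets tested, 8 fell and 1, Txnip, rose. The 3 smallest adjusted p-values belonged to Shmt1, the cytosolic serine hydroxymethyltransferase (log2 −0.85, adjusted p = 0.0236), Got1, the cytosolic aspartate transaminase (−0.89, 0.0238), and Bcat1, a branched-chain amino acid transaminase (−0.83, 0.0238). Among 14 other genes of cytosolic synthetases and their complex, 3 fell (Dars, Yars, Aimp2), and of 17 mitochondrial synthetases 0 fell. For 17 genes a count of 0 is near the share of all genes, and the difference between the lists was not tested. Of 6 eIF2 kinases and their regulators, Eif2ak2 fell, the double-stranded RNA sensor PKR. Its level was 99.7 and 95.8 CPM in WT LPS, 61.0 and 59.9 with SAHA, and 29.9 and 32.2 in KOKI LPS (−0.67 for SAHA, adjusted p = 0.0303).

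In KOKI LPS cultures compared with WT LPS, Ddit4 was higher and Slc1a5 lower, and no other member passed the test. Of 36 members tested 1 rose and 1 fell, against 2.25% and 1.83% of all genes (4.08% in all). The median log2 fold change was 0.226, beside −0.0202 over all genes. Libraries did not overlap for 19 members, 17 of them higher in KOKI LPS (20.5% of all genes) and 2 lower (27%). This comparison shares its WT LPS libraries with that of SAHA. If the treatment label of KOKI LPS holds, SAHA treatment and genotype differ together in it. Ddit4 (chromosome 10, 59949675-59951770) rose by 1.43 ± 0.233 on the log2 scale (adjusted p = 0.0144), though its 2 KOKI LPS libraries were far apart at 38.5 and 64.8 CPM. Without WT LPS replicate 1 or 2, no member was called higher by edgeR, with 6 and 10 members at an unadjusted p under 0.05 in either direction, and Ddit4 reached an adjusted p of at most 0.0821 over all alternatives; DESeq2 called 3 members higher. Asns, at 100.4 and 122 CPM against 77.3 and 78.9, gave 0.55 ± 0.14 and did not pass (adjusted p = 0.0801).

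Slc1a5, the glutamine carrier ASCT2, was the sole member called lower in KOKI LPS, and it was so against both wild-type groups. It lies on chromosome 7 (16781340-16798274) and read 99.8 and 105 CPM in WT LPS, 93.6 and 98.4 with SAHA, and 27.4 and 33.2 in KOKI LPS. The 4 wild-type libraries lay close together and both KOKI LPS libraries were far below all of them. The log2 change was −1.72 ± 0.142 against WT LPS (adjusted p = 0.000726) and −1.65 ± 0.142 against WT LPS+SAHA (adjusted p = 0.000495). It was called in all 13 settings tried, with a log2 change from −1.87 to −1.59 against WT LPS. SAHA left it at −0.07 (adjusted p = 0.797).

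Plasmablast markers differed between the genotypes, with 6 of 7 higher in KOKI LPS (a sum of 1820 and 1654 CPM, against 870 and 819 CPM in WT LPS), as did 2 of 8 proliferation markers (2918 and 2910 CPM, against 2113 and 2079 CPM). Of 7 macrophage markers tested Itgam was higher in KOKI LPS (log2 2.71, adjusted p = 0.00246) and Lyz2 lower (−1.41, adjusted p = 0.0154), and the list summed to 104 and 107 CPM against 136 and 130 CPM. The part of these markers in the values of Ddit4 and Slc1a5 was not tested. Of the surrounding pathway genes 2 were called: Eif2ak2 fell by 1.62 on the log2 scale (adjusted p = 0.000465) and Ero1l, an oxidase of the endoplasmic reticulum, rose by 0.81 (adjusted p = 0.0109). Over all genes 4.08% were called. Levels also differed between the 2 KOKI LPS libraries: replicate 2, the library with Xist counts, was the higher for 34 of 36 members (49% of all genes), with a median log2 difference of 0.278 over replicate 1. Replicate 2 was also the higher for 29 of 36 members in WT LPS+SAHA (49.4% of all genes, median 0.149) and for 21 of 36 in WT LPS (48.3%, median 0.0484).

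The splenic comparison with the most members called was that of KOKI LPS and WT LPS+SAHA, where 27 of 36 members were higher in KOKI LPS and 1, Slc1a5, was lower. Over all genes 23.7% were called, 14.1% higher and 9.64% lower. The median log2 fold change was 0.965, beside −0.0282 over all genes, and both KOKI LPS libraries exceeded both SAHA libraries for 32 members (32.1% of all genes). Without KOKI LPS replicate 2 the count was 17, and it was 20 to 25 without another library of either group. By the titles and design text, SAHA treatment and genotype differ together here. If the treatment label of KOKI LPS holds, both groups had SAHA and differ in genotype. The libraries of WT LPS+SAHA are those of the first comparison.

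All 9 synthesis enzymes were higher in KOKI LPS than in WT LPS+SAHA. Asns had the largest difference among them, 1.95 ± 0.146 (log2 ± SE, adjusted p = 0.000296), followed by Cth at 1.79 ± 0.290 (adjusted p = 0.00529). Transcripts of the serine synthesis enzymes differed by 0.72 ± 0.170 for Phgdh (adjusted p = 0.0205), 1.21 ± 0.153 for Psat1 (0.00189) and 1.03 ± 0.127 for Psph (0.00174). Cct6a, whose exons overlap those of Psph, was higher in this comparison too (0.74, adjusted p = 0.0189). The mitochondrial one-carbon enzymes differed by 0.73 ± 0.173 for Shmt2 (0.0204) and 1.16 ± 0.128 for Mthfd2 (0.00112). Aldh18a1 differed by 1.13 ± 0.181 (0.00508) and Pycr1 by 1.13 ± 0.331 (0.041).

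Of the 8 synthetases 7 were higher, all but Sars. Tars led with 1.00 ± 0.141 (adjusted p = 0.00291), then Gars with 0.99 ± 0.165 (0.00566), Aars with 0.88 ± 0.156 (0.00709) and Eprs with 0.87 ± 0.176 (0.0114). Iars differed by 0.75 ± 0.131 (0.00669), Nars by 0.72 ± 0.159 (0.0161) and Wars by 0.65 ± 0.2 (0.0486).

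Stress effectors and carriers were also mostly higher. Chac1 differed by 2.4 ± 0.306 (adjusted p = 0.00194), Sesn2 by 1.25 ± 0.272 (0.0152), Eif4ebp1 by 1.09 ± 0.162 (0.0036) and Ddit4 by 0.93 ± 0.231 (0.0236). Slc1a4 led the carriers with 1.68 ± 0.290 (0.00637), beside 1.58 ± 0.197 for Slc7a3 (0.00181), 1.30 ± 0.229 for Slc7a5 (0.00682) and 0.47 ± 0.135 for Slc7a1 (0.0392). Of the regulators Atf4 passed at 0.80 ± 0.143 (0.00715), Atf3 at 1.33 ± 0.249 (0.00863) and Trib3 at 1.89 ± 0.487 (0.0275). Trib3 did not overlap between the groups but spread from 4.15 to 11.7 CPM within KOKI LPS.

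Of the neighbouring lists, 7 of 10 genes of eIF2, its phosphatase and eIF2B were higher in KOKI LPS and 0 lower, as were 12 and 0 of 14 other cytosolic synthetase genes. Among the eIF2 genes called, Eif2s3x was at 300 CPM in KOKI LPS replicate 1 and 484 in replicate 2, the library with Xist counts. It was at 194 and 216 CPM with SAHA, and the part of sex in its call was not tested. Of 24 further ATF4 targets 13 were higher and 1, Txnip, lower. Mitochondrial synthetases were near the 14.1% of all genes, with 3 of 17 (17.6%) higher and 1 lower, and of the 6 eIF2 kinases and their regulators 0 were higher and 1, Eif2ak2, lower. Ero1l (log2 1.56, adjusted p = 0.000398), the transcription factor Nfil3 (2.66, 0.000864) and Bcat1 (1.10, 0.00131) had the smallest adjusted p-values. All 8 proliferation markers and all 7 plasmablast markers tested were higher as well. Of 7 macrophage markers 4 were lower and 1 higher (sums of 104 and 107 CPM against 174 and 165 CPM), and 3 of 8 B cell markers, 1 of 6 T cell markers and 0 of 2 neutrophil markers were lower. Of 4 erythroid markers Tfrc was higher. The part of these markers in the result was not tested.

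**Figure D3:**
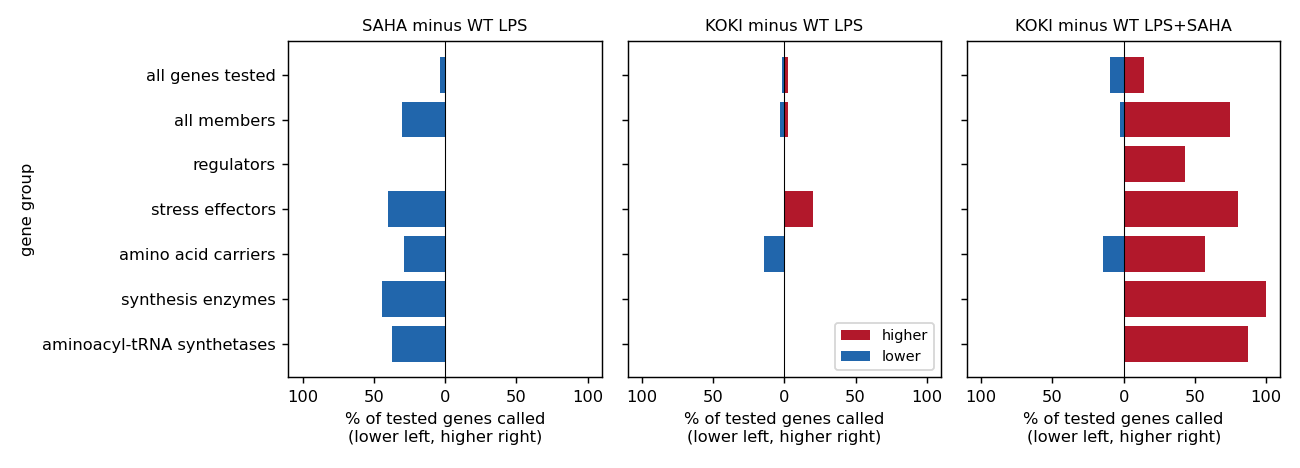
Share of tested genes called lower (blue, to the left) and higher (red, to the right) in percent (x axis), for all genes, all members and each role (y axis), in the 3 splenic comparisons. With SAHA 30.6% of members and 3.69% of all genes were lower; 75% of members and 14.1% of all genes were higher in KOKI LPS than in WT LPS+SAHA.

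Genes with and without the promoter element are described side by side. The 11 tested members with TGATGNAA had a median log2 change with SAHA of −0.77, and 5 of them fell. The 18 tested members whose window lacked it had a median of −0.401, and 4 fell (Sesn2, Psat1, Psph, Mthfd2). Of all genes tested 3.69% fell. The ranges overlapped widely, −2.13 to 1.38 with the element and −1.26 to 0.499 without, and Vldlr, which holds an element, was the upper end of the first. Between KOKI LPS and WT LPS+SAHA, 10 of 11 and 11 of 18 were higher in KOKI LPS, beside 14.1% of all genes. The difference between members with and without the element was not tested.

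In the femoral pools no member passed the test between KOKI and control. Of 35 members tested edgeR called 0 in either direction, with 3 at an unadjusted p under 0.05, and DESeq2 called 1 higher. Cth, at 1 to 5 counts in the femoral pools, and Slc7a3, at 2 to 9, did not pass the filter on low counts. Few genes were called at all, 0.0301% of 16624, and the median log2 change of the members was 0.0779. Ddit4 had the smallest p-value, at 12.5 and 17.7 CPM in the controls, 25.9 in the KOKI pool lacking RAG2 and gamma c and 43.8 in the KOKI pool lacking RAG2. Its log2 change of 1.21 ± 0.291 did not pass (adjusted p = 0.141). Phgdh followed, at 54.4 and 54.7 CPM in the controls and 78.7 and 80.3 in the KOKI pools (0.55 ± 0.166, adjusted p = 0.19), and then Wars with 28.8 and 29.3 against 37.8 and 39.4 CPM (0.41 ± 0.173, adjusted p = 0.297). For each of these 3 both KOKI pools were above both controls, as for 10 members in all, while 3 were below and 22 overlapped (25% and 24.3% of all genes). Slc1a5 was at 63.9, 66.1, 63.3 and 64.8 CPM in the 4 femoral pools. The 2 KOKI pools differ in gamma c, and members were called when either control pool was left out, which leaves a single control pool. The median log2 change of the members stayed between 0.0114 and 0.235 when a library was left out.

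The effect of KOKI on Slc1a5 differed between the splenic cultures and the femoral pools. Tissue, cell type, LPS culture and the loss of RAG2 and gamma c cannot be told apart in this difference. The same holds for SAHA if the treatment label of KOKI LPS is right. The difference of the 2 effects was −1.72 ± 0.232 on the log2 scale (interaction term, edgeR adjusted p = 0.00656), with no other member called among 37 tested. Of 20204 genes 0.846% were called, 0.416% higher and 0.431% lower. For Ddit4 the interaction was 0.25 ± 0.357 (adjusted p = 0.859), so a difference between the tissues was not shown.

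Femoral and splenic libraries differed for most members, as they did for 51.3% of 20204 genes (26.3% higher and 25% lower in femur). Of the 37 members 26 were lower in the femoral pools and 4 higher, with a median log2 difference of −0.95, beside −0.0494 over all genes. These counts include Cth, Slc7a3 and Nupr1, which passed the filter on low counts only through the tissue where they are high. Their direction was therefore fixed by the filter, and their calls add no support. The difference is the mean of the femoral groups minus the mean of the splenic groups, WT LPS+SAHA among them. KOKI groups have more weight in the femoral mean than in the splenic mean. Tissue, cell type, the loss of RAG2 and gamma c, KOKI genotype, SAHA and LPS culture cannot be told apart here. The 4 higher members were Cebpb, Nupr1, Vldlr and Atf3. Cebpb was at 29.5 to 55.3 CPM in femur against 0.781 to 2.38 in spleen (CPM scaled over all 10 libraries, log2 4.51 ± 0.247, adjusted p = 2.22e-08). Nupr1 was at 8.62 to 15.2 against 0 to 0.811 CPM. Cebpb encodes a C/EBP factor that is abundant in myeloid cells, and macrophage markers summed to between 4272 and 5978 CPM in femur and between 111 and 182 CPM in spleen. Atf3 was at 32.5 to 50.6 CPM in femur and 6.88 to 24.1 in spleen, and Vldlr at 2.57 to 3.83 against 0.187 to 1.42 CPM.

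All 9 synthesis enzymes were lower in femur, as were 7 of 8 synthetases and 6 of 7 carriers. Cth and Slc7a3, which are among these, were near 0 in femur. Cth was at 0.0425 to 0.146 CPM in femur against 4.99 to 25.6 in spleen, and Slc7a3 at 0.0607 to 0.383 against 9.48 to 33.8 CPM. Both passed the filter on low counts only through the splenic libraries, so they are left out of the order by size. Among the other lower members Trib3 (−3.66), Chac1 (−3.14), Slc1a4 (−2.66), Psph (−2.30) and Mthfd2 (−1.75) had the largest differences. Atf4 itself differed less, at 118 to 148 CPM in femur and 141 to 270 CPM in spleen (−0.58 ± 0.12, adjusted p = 0.00158). The overlap came from WT LPS+SAHA replicate 1, at 141 CPM. Untreated WT LPS, at 237 and 216 CPM, and KOKI LPS, at 243 and 270 CPM, were above all femoral pools. Ddit3, Cebpg, Atf5, Sesn2, Eif4ebp1, Slc38a2 and Wars were not called. B cell markers were at 2620 to 3570 CPM in spleen on this scale and 8 of 8 were lower in femur, while neutrophil and erythroid markers were at 11880 to 19960 and 8070 to 10860 CPM in femur; the part of cell make-up in the members' differences was not tested.

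**Figure D4:**
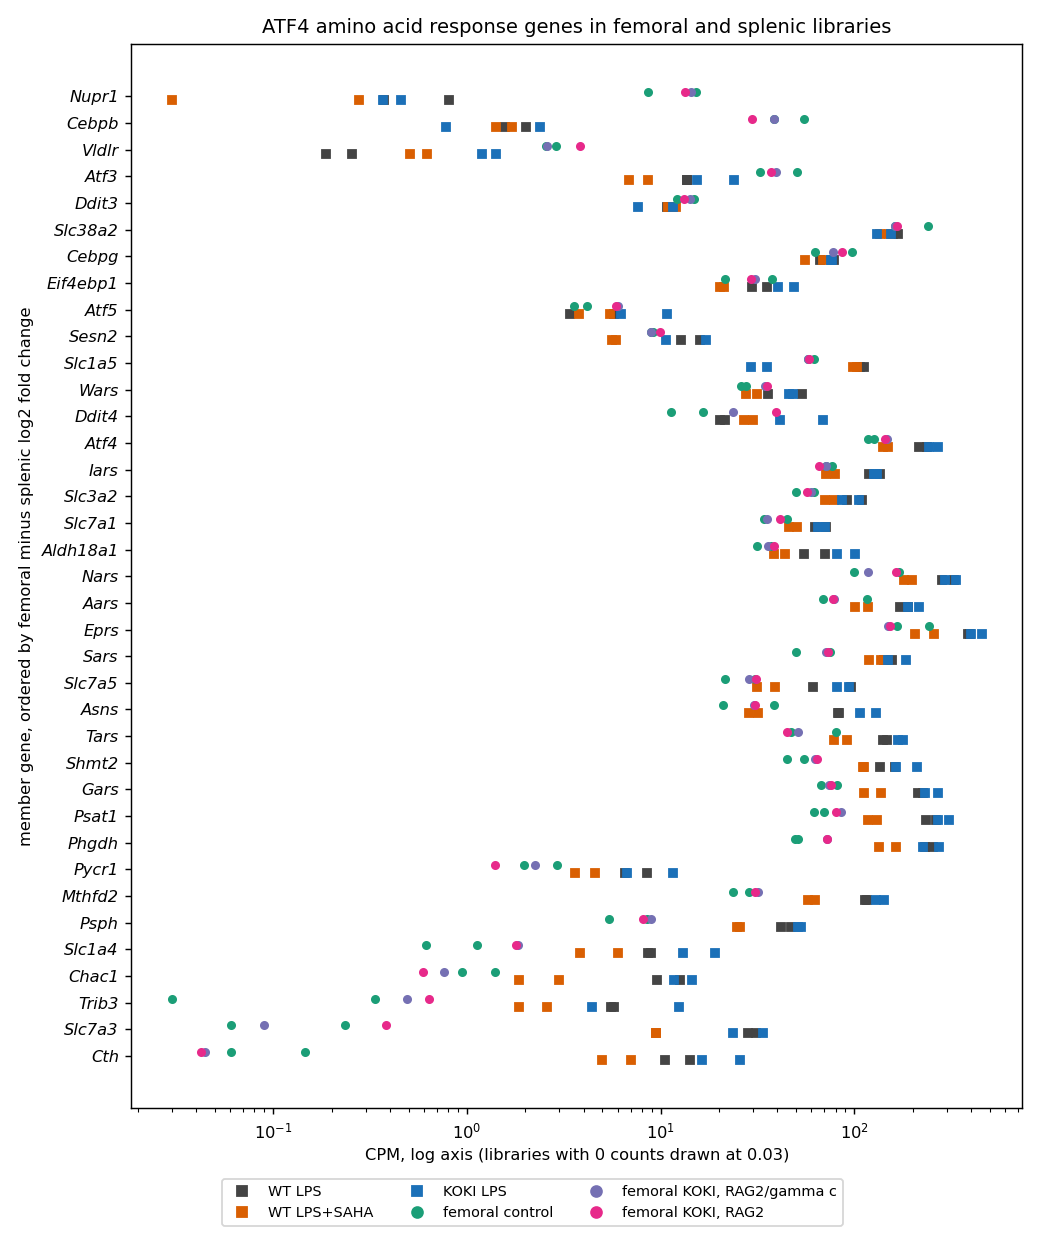
CPM of each of the 37 members in all 10 libraries (x axis, log scale; libraries with 0 counts are drawn at 0.03), ordered from top to bottom by the femoral minus splenic log2 fold change. Cebpb and Nupr1 have all femoral points (circles) right of the splenic points (squares), and Cth and Slc7a3 all of them to the left.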

How the data were processed

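Gene counts were deposited by the authors as 1 table of whole-number counts for 10 libraries. Per the labels' protocols, libraries were made with a stranded total RNA kit from 500 ng of RNA. Reads were aligned to mm10 with STAR 2.4.0a and counted with featureCounts of Subread 1.4.6-p1, per the submitters' processing notes. The annotation, strand setting and handling of multimapping reads were not given in the sources used here. From the deposited counts, 100 spike-in and phiX entries (1 to 17 counts a library) were left out. edgeR 4.0.16 in R 4.3.3 was used with TMM scaling, filterByExpr (minimum count 10, minimum total 15) and its quasi-likelihood test, and p-values were adjusted after Benjamini and Hochberg over all genes tested, with a threshold of 0.05. The splenic comparisons came from 1 fit of 6 libraries in 3 groups, the femoral comparison from 4 libraries, and those across tissues from all 10. CPM were scaled within the libraries named, and RPKM divided them by exonic length. Fits were tested on simulated counts. DESeq2 1.42.0, other scaling, no filter, left-out libraries and a replicate block were alternatives. Every member could be named. Values in each library were given for those called in a splenic comparison, and of the surrounding lists the 3 smallest adjusted p-values. Members and lists were chosen with earlier results of these data known. Promoters came from RefSeq windows (GRCm38.p6). A promoter stretch that met the rule for printing is not reported here.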

Additional observations from a re-analysis of the deposited data

Results flagged for a closer look

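Slc1a5 was marked because the effect of KOKI on it differed between the splenic cultures and the femoral pools by a test of the difference itself. The KOKI effect in spleen minus that in femur was −1.722 on the log2 scale (edgeR interaction term, adjusted p = 0.00656). On the scale of all 10 libraries it was at 107 and 112 CPM in WT LPS and 29.4 and 35.3 in KOKI LPS, and at 57.9 and 62.1 CPM in the femoral controls and 57.9 and 58.5 in the femoral KOKI pools. Both splenic KOKI libraries were below both WT LPS libraries, while the femoral groups overlapped. Tissue, cell type, LPS culture, the loss of RAG2 and gamma c, and possible SAHA in KOKI LPS cannot be told apart here.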

How the results depend on the processing

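Lower with SAHA: 11 as reported, 18 with DESeq2, 23 with no filter on low counts, 5 with all 10 libraries and 0 with the 4 compared libraries alone (27 at an unadjusted p under 0.05). Leaving out a library gave 0 to 6, including those of KOKI LPS, an alternative added after the data were seen. Higher in KOKI LPS than in WT LPS: 1 as reported, 3 with DESeq2, 4 with no filter and 0 to 1 leaving out a library. Higher in KOKI LPS than in WT LPS+SAHA: 27 as reported and 17 to 27 leaving out a library, with a median log2 change of 0.803 to 1.14 beside 0.965. In femur, DESeq2 and no filter each gave 1 higher, and leaving out a library 0 to 7 higher and 0 to 4 lower. The femoral minus splenic median was −0.95, and −1.08 to −0.74 leaving out a library. The interaction gave 0 to 1 higher.

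The replicate block, fitted on the 4 libraries compared, gave 27 lower and 1 higher with SAHA and 5 higher in KOKI LPS than in WT LPS. With it Atf4 (adjusted p = 0.00521), Atf3 (0.0133) and Trib3 (0.00957) were among those lower with SAHA. The labels do not say whether a number shared by titles marks a shared animal or culture. Over all genes, deviations of same-numbered libraries correlated by 0.455, 0.132 and 0.163 in the 3 splenic comparisons, with 2 pairs each. No paired analysis was possible for the femoral pools because the 2 KOKI pools carry no shared numbers with the controls. Of 905 values under the alternatives for members that were called or singled out, 780 kept direction and call, 122 lost the call, 3 gained it and 0 reversed. Over all 37 members, called or not, the sign of the log2 change differed between settings for 2 with SAHA, 13 in KOKI LPS against WT LPS (among them Trib3, −0.321 to 1.18) and 3 in KOKI LPS against WT LPS+SAHA; 0 of these had been called. Depth was 18614742 counts or more in each library. Members scarce in the splenic libraries even so, such as Nupr1 (0 to 19 counts) and Vldlr (5 to 29 counts), limit what can be shown.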

Other observations

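Genes around the pathway also differed between the femoral pools and the splenic cultures. Of 14 other genes of cytosolic synthetases and their complex 12 were lower in femur and 0 higher, and of 17 mitochondrial synthetases 9 were lower and 0 higher. Of 10 genes of eIF2, its phosphatase and eIF2B 7 were lower and 1 higher, of 6 eIF2 kinases and their regulators 4 were lower and 2 higher, and of 24 further ATF4 targets 9 were lower (37.5%) and 7 higher (29.2%). Over all genes 25% were lower and 26.3% higher, so the shares of the further targets were near the background.

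Txnip, which encodes a thioredoxin-binding protein, was the sole gene of the surrounding lists that rose with SAHA. Its level was 202 and 188 CPM in WT LPS, 325 and 297 with SAHA, and 182 and 197 in KOKI LPS (log2 0.70, adjusted p = 0.0404 for SAHA against WT LPS). Nfil3, a bZIP transcription factor, read 10.1 and 14.1 CPM in WT LPS, 3.72 and 3.93 with SAHA, and 19.6 and 28.4 in KOKI LPS, with no overlap among the 3 groups. Both genes were picked after their values were seen.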
